A study of Mus musculus with 40 samples.

Results

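The 20 libraries described here are the Con TAC and Con Sham libraries of a bulk RNA sequencing study of the mouse left ventricle, taken by their titles from 40 libraries in all. Transverse aortic constriction (TAC) narrows the aorta so that the left ventricle pumps against a raised pressure, and sham surgery leaves the aorta open. Con, the study's control genotype, contributed 5 female and 5 male libraries to each surgery, and the other 20 libraries came from ONOFF mice, in which a dominant negative O-GlcNAcase was switched on in the heart for a limited time. The question addressed by Con TAC against Con Sham is how a ventricle without that transient induction differs after 9 weeks of pressure overload.

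All groups were FVB/NJ mice, and Con and ONOFF mice alike received doxycycline food for 2 weeks, returned to standard chow for 2 weeks, and then had TAC or sham surgery 9 weeks before harvest. Con Sham mice therefore had doxycycline and an operation too. The labels do not say which transgenes, if any, the Con mice carried, which promoter drove the dominant negative enzyme, how old the animals were, or whether a library came from 1 animal. Nothing beyond the separate sample labels states that replicates were separate mice, so the p-values measure the spread between these samples.

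A heart muscle cell that is stretched or loaded for weeks enlarges and returns to part of the gene program of the fetal ventricle, with more natriuretic peptide and skeletal α-actin messenger RNA. Pressure overload is also known for altered ion channels, lowered fatty acid oxidation genes and growth of the collagen matrix between the cells. The tissue here is whole ventricle, so messenger RNA from muscle cells, fibroblasts, vessels and blood is mixed, and fewer cells of a type cannot be told apart from less RNA per cell.

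The deposited values are normalized counts, which are not divided by transcript length, so levels are compared between libraries and not between genes. Their totals ran from 38485959 to 47285495 in Con Sham and from 37883856 to 47653987 in Con TAC; the depth before normalization is unknown, and no counting interval can be given. Defining ventricular genes were present in all 20 libraries: the summed level of 4 ventricular muscle markers was 400900 to 703400 in Con Sham and 393100 to 761900 in Con TAC, and the 5 lung and airway markers were listed at 0 in at least 11 of the 20 libraries. Con Sham F replicate 3, F replicate 5 and M replicate 4 listed 6045, 5782 and 6920 genes at 0, against 2983 to 4594 in the other 17. Con TAC F replicate 2 and F replicate 3, labelled female, held 51.7 and 6.72 normalized counts of Xist, the RNA of the inactive X chromosome, against 1280 to 3270 in the other 8 libraries labelled female; their summed Y-linked genes were 16.0 and 12.8, within the range of those 8. Results are therefore also given without the 3 libraries rich in zeros, without the 2 libraries low in Xist, and without all 5.

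Of 15780 genes with at least 10 normalized counts in at least 5 libraries, 551 (3.49%) changed between Con TAC and Con Sham at an adjusted p below 0.05 (limma on log2(value + 1), with F or M as a term, Benjamini-Hochberg adjustment). These were 274 higher (1.74%) and 277 lower (1.76%), and a gene that passes this threshold is named called below. Counts of called members in each list below are to be read beside these shares of all genes. Changes were mostly moderate: the median fold was 1.47 in either direction, and 60 genes were over 2-fold higher and 40 over 2-fold lower. For 420 of the 551, all 10 Con TAC libraries lay on the same side of the Con Sham mean, taken over libraries of the same F or M label. The same libraries chose these genes, so this count, here and for single genes below, describes them and tests nothing. Uncalled genes can reach it too, such as Plin4 (adjusted p 0.143). The 10 TAC and 10 sham values did not overlap at all for 41 genes (0.26% of those tested), 21 higher and 20 lower. Over all genes tested the median log2 change was 0.02, and 53.7% of them had a positive change.

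The count of called genes was 570 without the 3 libraries rich in zeros, 359 without the 2 libraries low in Xist and 445 without all 5, and 377, 324 and 301 of the 551 were among them. Of the 551, 333 were called whichever single library was left out, and 233 were called in those 20 fits and in the 3 fits without the doubted libraries. Con TAC libraries differed in the size of the change. The mean log2 difference of the genes called higher ran from 0.57 in Con TAC M replicate 3 to 1.05 in Con TAC M replicate 2, and that of the genes called lower from -1.02 in Con TAC F replicate 2 to -0.43 in Con TAC M replicate 3. Since these genes were chosen by the same libraries, the values describe the spread of the response and test nothing.

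**Figure D1:**
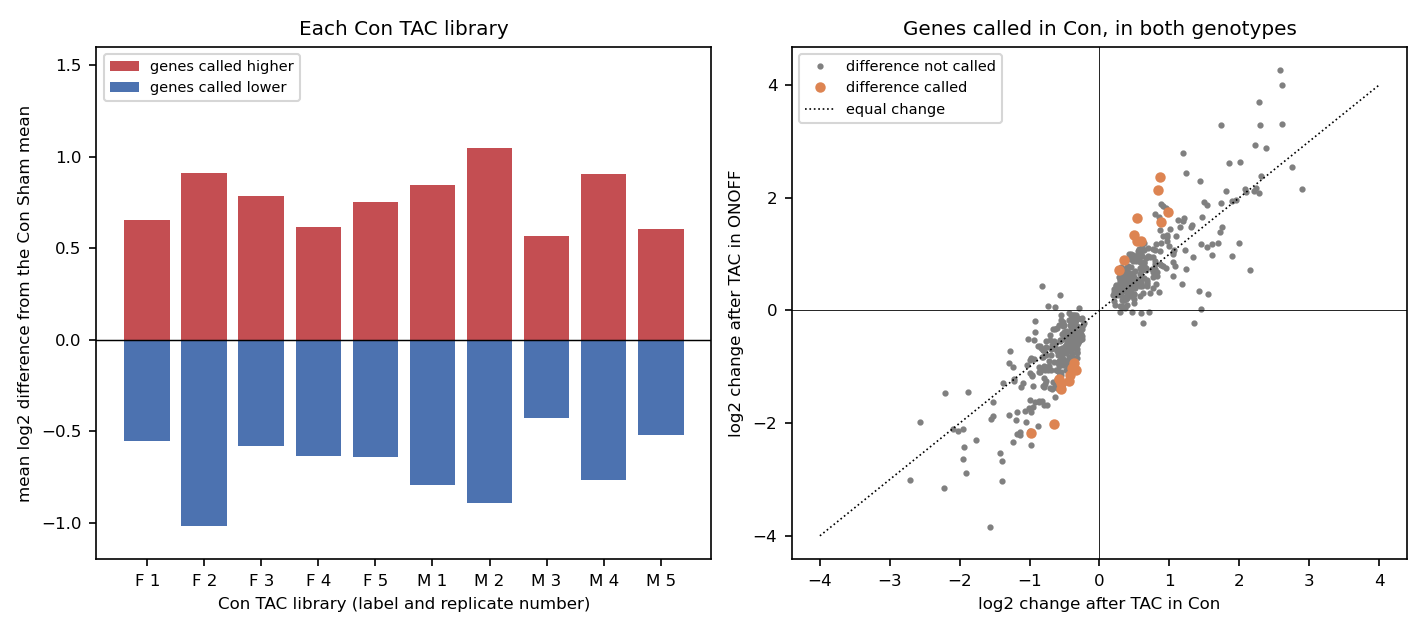
Left, the mean log2 difference of each Con TAC library from the Con Sham mean, over the 274 genes called higher (red) and the 277 called lower (blue). Right, the log2 change after TAC in Con (x axis) and ONOFF (y axis) of the 551 genes called in Con, with the 20 genes whose change differed between genotypes at an adjusted p below 0.05 in orange and equal change as a dotted line.

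Of the natriuretic peptide genes, Nppa and Nppb rose and the protease gene Corin fell. Nppa encodes atrial natriuretic peptide, which lowers blood volume and pressure. Its 10 Con Sham values ran from 4599 to 15850 normalized counts (median 9582) and its 10 Con TAC values from 17640 to 101200 (median 43870). The groups did not overlap, and the TAC libraries spread more widely than the sham libraries. The fitted change was 4.89-fold (log2 2.29 ± 0.29 SE, n = 10 and 10, adjusted p 9.34e-05). Nppb, which encodes the B-type natriuretic peptide measured in heart failure, went from 5656 to 14080 in sham (median 9189) to 18640 to 38820 after TAC (median 24990). Again no TAC library fell among the sham libraries; the change was 2.91-fold (log2 1.54 ± 0.15 SE, adjusted p 2.22e-06).

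Corin cuts the atrial peptide precursor into its active form. Its Con Sham values ran from 4633 to 7609 (median 6322), and its Con TAC values from 2404 to 5614 (median 3970). All 10 TAC libraries were below the sham mean, although the groups overlapped, and Corin was 1.56-fold lower (log2 -0.65 ± 0.12 SE, adjusted p 0.00305). Messenger RNA of the peptides and of this processing enzyme moved in opposite directions. Among the 9 natriuretic peptide, processing and receptor genes tested these were the calls, 2 higher and 1 lower (22.2% and 11.1%). Mme, the peptide-degrading enzyme neprilysin, had a log2 change of -0.35 (adjusted p 0.201). The 3 calls held with every single library left out and without the 5 doubted libraries.

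The promoters of Nppa, Nppb, Acta1 and Ankrd1 are shown because these 4 genes belong to the classic stretch and hypertrophy program and their TAC and sham values did not overlap. Each runs from 250 bases before to 50 bases after the RefSeq gene start, 5′ to 3′ on the gene's strand, in build GRCm38.p6: Nppa at chr4:148000472-148000771 (plus strand), Nppb at chr4:147985650-147985949 (plus), Acta1 at chr8:123894726-123895025 (minus) and Ankrd1 at chr19:36119795-36120094 (minus). Nppa and Nppb are neighbours on chromosome 4. Capitals mark matches on either strand to CATTCC (the MCAT element bound by TEAD factors), the CArG box bound by serum response factor, AGATAA (bound by zinc finger factors of the Gata family) and TATAAA (the box bound by the general transcription machinery).
Nppa: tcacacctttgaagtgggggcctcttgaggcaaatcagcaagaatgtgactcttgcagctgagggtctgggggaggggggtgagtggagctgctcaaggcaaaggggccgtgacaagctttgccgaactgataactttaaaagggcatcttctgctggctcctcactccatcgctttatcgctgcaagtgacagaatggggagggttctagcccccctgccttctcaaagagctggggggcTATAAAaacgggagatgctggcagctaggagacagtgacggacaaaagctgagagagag
Nppb: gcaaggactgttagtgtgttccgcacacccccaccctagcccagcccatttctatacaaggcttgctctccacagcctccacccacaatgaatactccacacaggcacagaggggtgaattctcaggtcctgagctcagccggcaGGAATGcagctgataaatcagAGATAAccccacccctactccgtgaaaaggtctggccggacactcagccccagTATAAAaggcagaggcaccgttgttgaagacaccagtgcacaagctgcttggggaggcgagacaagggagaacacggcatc
Acta1: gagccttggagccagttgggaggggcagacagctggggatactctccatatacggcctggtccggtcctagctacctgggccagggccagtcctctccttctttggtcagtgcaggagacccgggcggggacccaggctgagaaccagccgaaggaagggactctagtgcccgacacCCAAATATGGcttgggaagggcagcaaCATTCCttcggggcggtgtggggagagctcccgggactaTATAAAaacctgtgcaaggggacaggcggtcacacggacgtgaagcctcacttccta
Ankrd1: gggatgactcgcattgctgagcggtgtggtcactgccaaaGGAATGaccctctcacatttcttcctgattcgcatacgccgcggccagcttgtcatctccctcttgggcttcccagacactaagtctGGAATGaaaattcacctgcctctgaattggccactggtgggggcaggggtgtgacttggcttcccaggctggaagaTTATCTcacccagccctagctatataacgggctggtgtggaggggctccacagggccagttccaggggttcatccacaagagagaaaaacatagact
CATTCC was found in Nppb (first base at -105 from the start, on the minus strand, so printed as GGAATG), in Acta1 (-46) and at 2 places in Ankrd1 (-210 and -123, both on the minus strand). A CArG box was found in Acta1 (-73), AGATAA in Nppb (-84) and on the minus strand in Ankrd1 (-47), and TATAAA in Nppa (-9), Nppb (-31) and Acta1 (-7). Of 27025 mouse promoters of the same length, 14.6% held CATTCC, 1.57% a CArG box, 11.4% AGATAA and 14.2% TATAAA. Also searched were TGACTCA or TGAGTCA (AP-1, 5.17% of promoters), TGACGTCA (cyclic AMP response element, 1.88%), the TGACG within it (21.0%) and TGATGCAA (0.929%); of these only TGACG occurred in the 4 promoters, in Nppa at 27 bases after the start. The matches describe letters and not binding.

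Of 19 fetal and hypertrophy genes tested, 8 were called higher and 0 lower (42.1%, median log2 change 0.33), against 1.74% and 1.76% of all genes. Acta1, the skeletal muscle α-actin that the fetal heart also makes, ran from 9679 to 47410 normalized counts in sham (median 23310) and from 53090 to 256400 after TAC (median 118900). The groups were separate, although the lowest TAC library was close to the highest sham library. Acta1 rose 5.20-fold (log2 2.38 ± 0.24 SE, adjusted p 5.13e-06). Rcan1, a target and inhibitor of the calcium-activated phosphatase calcineurin, ran from 3854 to 7497 in sham (median 5338) and from 7353 to 18710 after TAC (median 10960). A single TAC value lay within the sham range, and the change was 2.17-fold (log2 1.12 ± 0.14 SE, adjusted p 5.10e-05).

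The other calls in the list were Ankrd1, Synpo2l, Xirp2, Enah, Des and Fhl1. Des, the intermediate filament protein desmin, was 1.32-fold higher (adjusted p 0.0269) and lost its call without Con Sham M replicate 3 (adjusted p 0.0514). Fhl1, a LIM protein of the sarcomere, was 1.45-fold higher (adjusted p 0.0323) and lost its call in 8 of 20 single omissions (up to 0.0696). The switch of myosin heavy chains was not called. Myh7, the slow fetal form, had a sham median of 108200 and a TAC median of 122200 (log2 0.18 ± 0.20 SE, adjusted p 0.727), and Myh6, the fast adult form, medians of 1194000 and 1079000 (log2 -0.12 ± 0.16 SE, adjusted p 0.780). The 8 calls of the list held in the fits without the doubted libraries.

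Some genes of stretch-responsive proteins at the Z-disc and intercalated disc were also called. Of 20 ankyrin-repeat, LIM and Xin genes tested, 5 were called higher and 1 lower (25% and 5%, median log2 0.17), against 1.74% and 1.76% of all genes. Ankrd1, a titin-binding ankyrin-repeat protein, ran from 57720 to 113700 in sham (median 85500) and from 138100 to 238800 after TAC (median 186400), 2.22-fold higher (log2 1.15 ± 0.11 SE, adjusted p 2.22e-06). Its relative Ankrd23 went from 17900 to 32930 in sham (median 29110) to 38610 to 61890 after TAC (median 46060), 1.73-fold higher (adjusted p 4.59e-05). In both genes every TAC library exceeded every sham library.

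Xirp2, an actin-binding Xin protein, rose from 18950 to 28570 in sham (median 23240) to 34260 to 64040 after TAC (median 41490). Synpo2l of the fetal and hypertrophy list, an actin-bundling protein of the Z-disc, rose from 5441 to 8097 (median 6124) to 9144 to 18390 (median 11660). Neither gene's groups overlapped, and the changes were 1.85-fold and 1.98-fold (adjusted p 3.01e-05 and 1.47e-05). Flnc, the muscle filamin, was 1.39-fold higher (adjusted p 0.0269). It lost its call in 7 of 20 single omissions (adjusted p up to 0.0568) and without the 5 doubted libraries (0.175). Crip2, a LIM protein, was called lower (log2 -0.43, adjusted p 0.0333) and lost its call in 11 of 20 single omissions (up to 0.0708).

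**Figure D2:**
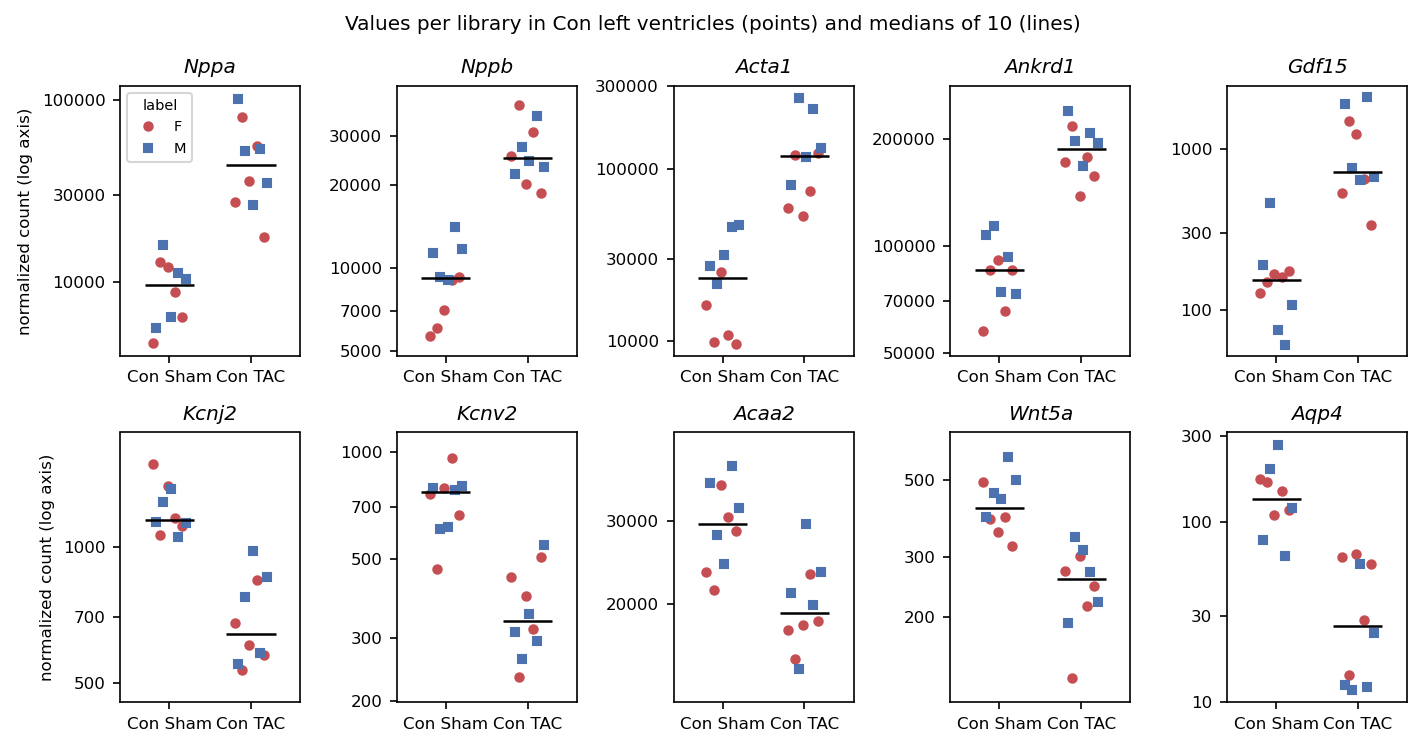
Normalized counts (log axis) of 10 genes in each Con Sham and Con TAC library, with circles for libraries labelled F, squares for M and a line at the median of 10. Nppa, Nppb, Acta1, Ankrd1 and Kcnj2 do not overlap between surgeries; Gdf15, Kcnv2, Acaa2, Wnt5a and Aqp4 overlap in part.

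Of 21 adult sarcomere genes tested, 1 was called (4.76%, close to the 3.49% of all genes). This was Mybpc3, myosin-binding protein C. Its sham values ran from 145100 to 168900 (median 156800) and its TAC values from 152500 to 221000 (median 185100), 1.19-fold higher (adjusted p 0.0225). The call was lost without the 5 doubted libraries (adjusted p 0.0659). Of 20 calcium handling genes 0 were called by limma, against 3.49% of all genes, a share at which 20 genes can hold 0 calls. Atp2a2, the calcium pump that refills the sarcoplasmic reticulum, was nearest, with sham values from 438100 to 552800 (median 487500) and TAC values from 204700 to 475500 (median 403500; log2 -0.37 ± 0.11 SE, adjusted p 0.0561). All 10 TAC libraries were below the sham mean, and Con TAC F replicate 2 was the low value. Its inhibitor Pln had a log2 change of -0.26 (adjusted p 0.0652).

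Of 24 potassium channel genes tested, 8 were called lower and 1 higher (33.3% and 4.17%, median log2 -0.21), against 1.76% and 1.74% of all genes. These channels carry the currents that repolarize the heart muscle cell. Kcnj2, the main inward rectifier of the ventricle, ran from 1050 to 1523 normalized counts in sham (median 1149) and from 533.4 to 978.4 after TAC (median 643.4). No TAC library reached the lowest sham library, and Kcnj2 was 1.76-fold lower (log2 -0.82 ± 0.11 SE, adjusted p 0.000138). Kcnv2, a silent subunit that modifies Kv channels, ran from 468.5 to 961.6 in sham (median 769.4) and from 233.7 to 547.6 after TAC (median 334.8). It was 2.01-fold lower (log2 -1.01 ± 0.15 SE, adjusted p 0.000398), with some overlap. Kcnh2, the pore of the rapid delayed rectifier, was 1.50-fold lower (sham median 3424, TAC median 2469, adjusted p 0.000715).

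Kcnd2, a subunit of the transient outward current, ran from 834.3 to 1302 in sham (median 998.8) and from 303.5 to 889.3 after TAC (median 766.5), 1.53-fold lower (adjusted p 0.0220). Kcnj3 and Kcnj5, the 2 subunits of the acetylcholine-gated channel, had log2 changes of -0.60 and -0.57 (adjusted p 0.0168 and 0.0313). Kcnq1, the slow delayed rectifier, and Abcc9, a subunit of the ATP-sensitive channel, had -0.45 and -0.36 (adjusted p 0.0334 and 0.0310). Kcnk2, a stretch-gated potassium channel, was the 1 called higher (log2 0.50, adjusted p 0.0348). Kcnj5, Kcnq1, Abcc9 and Kcnk2 lost their calls in 7, 9, 8 and 11 of the 20 single omissions (adjusted p up to 0.0668, 0.0657, 0.0670 and 0.0682). Without the 5 doubted libraries 6 members were lower and 0 higher.

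Among 21 sodium, calcium, chloride and pacemaker channel genes, 5 were called lower and 1 higher (23.8% and 4.76%, median log2 -0.20). Clcn1, a muscle chloride channel, fell from 48.0 to 174.7 (median 103.7) to 18.3 to 92.1 (median 35.6), 2.63-fold (adjusted p 0.0140). Gabrg3, a GABA receptor subunit, had medians of 151.1 and 55.0 and was 2.69-fold lower (adjusted p 0.0160). Clcn1 and Gabrg3 are low in abundance, and their groups overlapped.

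Hcn4, the pacemaker channel, ran from 323.8 to 927.2 in sham (median 519.2) and from 98.8 to 466.5 after TAC (median 334.6; log2 -0.98 ± 0.27 SE, adjusted p 0.0452). Cacna1g, a T-type calcium channel of pacemaking cells, had medians of 1297 and 773.3 (adjusted p 0.0437). These calls were lost in 14 and 15 of 20 single omissions (adjusted p up to 0.0835 and 0.0871), and that of Fgf13, a sodium channel partner (log2 -0.40, adjusted p 0.0490), in 16 (up to 0.0929).

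Markers of other parts of the heart were measured beside these channels. All 7 conduction system markers tested had negative changes, with 1 called, Hcn4 itself; their summed level was 1695 to 4405 in sham and 1272 to 2551 after TAC, and Isl1 was at 0 in at least 11 of the 20 libraries. The summed level of 10 atrial markers was 3480 to 21130 in sham (median 5442) and 2580 to 19780 after TAC (median 3426). None of the 10 was at 0 in at least 11 of the 20 libraries. Of 9 tested, 7 had negative changes (median log2 -0.60) and 1 was called, Kcnj3 itself. Myl7, Sln and Myl4 had log2 changes of -3.29, -2.98 and -2.15 with wide spread (adjusted p 0.320, 0.227 and 0.328). The part of conduction and atrial tissue in the channel results and in other genes was not tested. Of 15 gap junction and intercalated disc genes, the desmosomal cadherins Dsg2 and Dsc2 fell (1.67-fold and 1.45-fold, adjusted p 0.0101 and 0.0245), and the list's median log2 was -0.12.

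Receptors and second messengers of sympathetic and hormonal input gave 3 genes lower and 1 higher of 21 tested (14.3% and 4.76%, median log2 -0.28). Adra1b, the α1B adrenergic receptor, ran from 1627 to 2266 in sham (median 1916) and from 559.2 to 1488 after TAC (median 1197). The groups did not overlap, and it was 1.75-fold lower (log2 -0.81 ± 0.14 SE, adjusted p 0.00127). Adcy6, a cardiac adenylyl cyclase, was 1.26-fold lower (adjusted p 0.0142). Ednra, the endothelin A receptor, was 1.28-fold lower (adjusted p 0.0380) and lost its call in 12 of 20 single omissions (up to 0.0808). Edn3, an endothelin peptide, was the call in the other direction, 2.82-fold higher (sham median 72.8, TAC median 233.3, adjusted p 0.00831). Adrb1, the main cardiac β receptor, had a log2 change of -0.34 (adjusted p 0.0641).

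Among 15 cyclic nucleotide phosphodiesterases, Pde8a was 1.40-fold higher (adjusted p 0.0238) and Pde3a 1.30-fold lower (adjusted p 0.0323), which is 6.67% of the list in each direction. Pde8a lost its call without Con TAC M replicate 2 or without Con TAC M replicate 4 (adjusted p up to 0.0526), and Pde3a in 9 of 20 single omissions (up to 0.0632).

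Secreted stress factors moved in both directions, with 5 of 24 called higher and 2 lower (20.8% and 8.33%, median log2 0.01). Gdf15, a stress-induced hormone that lowers appetite through a brainstem receptor, ran from 60.5 to 463.0 in sham (median 153.0) and from 336.3 to 2089 after TAC (median 713.6). A single sham library, labelled M, reached the TAC range, and Gdf15 was 6.10-fold higher (log2 2.61 ± 0.35 SE, adjusted p 0.000161). Fgf6, a muscle fibroblast growth factor, was 3.86-fold higher (medians 76.6 and 253.9, adjusted p 0.00202). Hbegf and Bdnf, 2 growth factors, were 1.53-fold and 1.49-fold higher (adjusted p 0.00370 and 0.00707). Fgf16, a growth factor of heart muscle, and Fgf2 were lower (log2 -0.79 and -0.58, adjusted p 0.0126 and 0.0180). Without the 5 doubted libraries the list held 2 genes higher and 2 lower.

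Of 25 chaperone and heat shock genes, 6 were called higher and 0 lower (24% higher, median log2 0.22), against 1.74% and 1.76% of all genes. Hsph1, a heat shock protein that reloads Hsp70, ran from 2061 to 3200 in sham (median 2621) and from 3004 to 7030 after TAC (median 3916), 1.61-fold higher (adjusted p 0.00201). Hsp90aa1, the inducible Hsp90, had medians of 8228 and 13310 (1.56-fold, adjusted p 0.00414). Hspb1 and Hspb6, small heat shock proteins of muscle, had medians of 12860 and 20650, and of 40510 and 52040 (1.56-fold and 1.38-fold, adjusted p 0.00540 and 0.00927). All 10 TAC libraries were above the sham mean for each of these 4 genes, with overlap between groups. Dnaja4 and Hsp90ab1 lost their calls in 12 and 16 of the 20 single omissions (adjusted p up to 0.0764 and 0.0815). Without the 5 doubted libraries Hsph1, Hspb1 and Hspb6 were still called and Hsp90aa1 was not (adjusted p 0.0553).

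Of 22 genes of the integrated stress response, which slows translation and raises amino acid synthesis, 4 were called higher (18.2%) and 0 lower (median log2 0.24). Atf4, its main transcription factor, ran from 2793 to 3574 in sham (median 3131) and from 3532 to 5540 after TAC (median 3971), 1.33-fold higher (adjusted p 0.00339). Atf3, a factor induced downstream, ran from 185.1 to 789.8 (median 448.4) and from 499.4 to 3873 (median 1361), 2.90-fold higher (adjusted p 0.0205). Gdf15 is the third gene of this list that was called, and Cebpb the fourth (1.41-fold, adjusted p 0.0290). Cebpb lost its call in 6 of 20 single omissions (up to 0.0576), and Atf3 lost it without the 5 doubted libraries (0.104).

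Among 21 immediate early genes 4 were higher (19%) and 0 lower (median log2 0.21). Nr4a3, an orphan nuclear receptor, ran from 52.8 to 261.8 in sham (median 132.8) and from 149.0 to 1273 after TAC (median 493.5), 3.71-fold higher (adjusted p 0.00251). Atf3 is also in this list. Egr3 and Maff, 2 further transcription factors, were 2.50-fold and 1.45-fold higher (adjusted p 0.0360 and 0.0332) and lost their calls in 11 and 9 single omissions (up to 0.0723 and 0.0705). Without the 5 doubted libraries 1 gene of the list was called.

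Of 26 cardiac transcription factor genes, 1 was higher and 2 were lower (3.85% and 7.69%, against 1.74% and 1.76% of all genes, median log2 -0.12). Tbx15, a T-box factor known from limb skeletal muscle and adipose tissue, was the higher one. It ran from 0 to 52.7 in sham (median 35.4) and from 93.3 to 380.1 after TAC (median 173.4), with no overlap. The fitted change was log2 2.75 ± 0.53 SE (adjusted p 0.00475), and the single library at 0, Con Sham M replicate 4, is one of those rich in zeros; the adjusted p without these 3 was 3.31e-06. Tbx5, a T-box factor of heart development, ran from 543.1 to 1621 in sham (median 941.8) and from 355.4 to 890.1 after TAC (median 556.1), 1.70-fold lower (adjusted p 0.0184). Hey2, a ventricular Notch target, was 1.38-fold lower (adjusted p 0.0417) and lost its call in 16 of 20 single omissions (up to 0.0784).

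Ccn2, described with the matrix genes, and Vgll2 were the 2 calls, both higher, among 17 TEAD, VGLL and YAP genes (11.8%). Vgll2, a TEAD cofactor of skeletal muscle, had medians of 88.4 and 342.5 and was 4.03-fold higher (adjusted p 0.0184; 0.0710 without the 5 doubted libraries). Beside Acta1, Tbx15 and Vgll2, 8 skeletal muscle markers were tested, of which all 8 had positive changes and 0 were called. The summed level of all 14 listed markers was 5131 to 9306 in sham and 8716 to 16320 after TAC, most of it Casq1 and Myl1. Myh4, Myod1 and Myog were at 0 in at least 11 of the 20 libraries. Other fibre genes had higher means after TAC with a wide spread. Tnnt3 had means of 10.6 in sham and 72.9 after TAC (SD 9.4 and 200), and Atp2a1 19.0 and 95.6 (SD 21.2 and 274). The part of skeletal muscle tissue in these results was not tested.

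Of 23 tubulin and intermediate filament genes, 3 were higher (13%) and 0 lower (median log2 0.24). Tubb2a, a β-tubulin of microtubules, ran from 1556 to 2217 in sham (median 1768) and from 2186 to 3343 after TAC (median 2711), 1.49-fold higher (adjusted p 0.000447). Krt18, a keratin, was 2.30-fold higher (adjusted p 0.0310) and lost its call in 8 of 20 single omissions (up to 0.0670). Des was the other call.

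Of 32 cell cycle genes, 2 were higher and 1 was lower (6.25% and 3.12%, against 1.74% and 1.76% of all genes). Cenpf, a kinetochore protein of dividing cells, was the lower one: it ran from 297.3 to 1034 in sham (median 615.4), and 9 TAC libraries lay between 89.7 and 186 while Con TAC M replicate 3 stood at 1038 (4.07-fold lower, adjusted p 0.00188). Mcm3 and Ccnd2, a replication factor and a G1 cyclin, were 1.38-fold and 1.41-fold higher (adjusted p 0.0233 and 0.0282). Both calls were lost without the 5 doubted libraries (0.156 and 0.153), and Ccnd2 also in 8 single omissions (up to 0.0616).

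**Figure D3:**
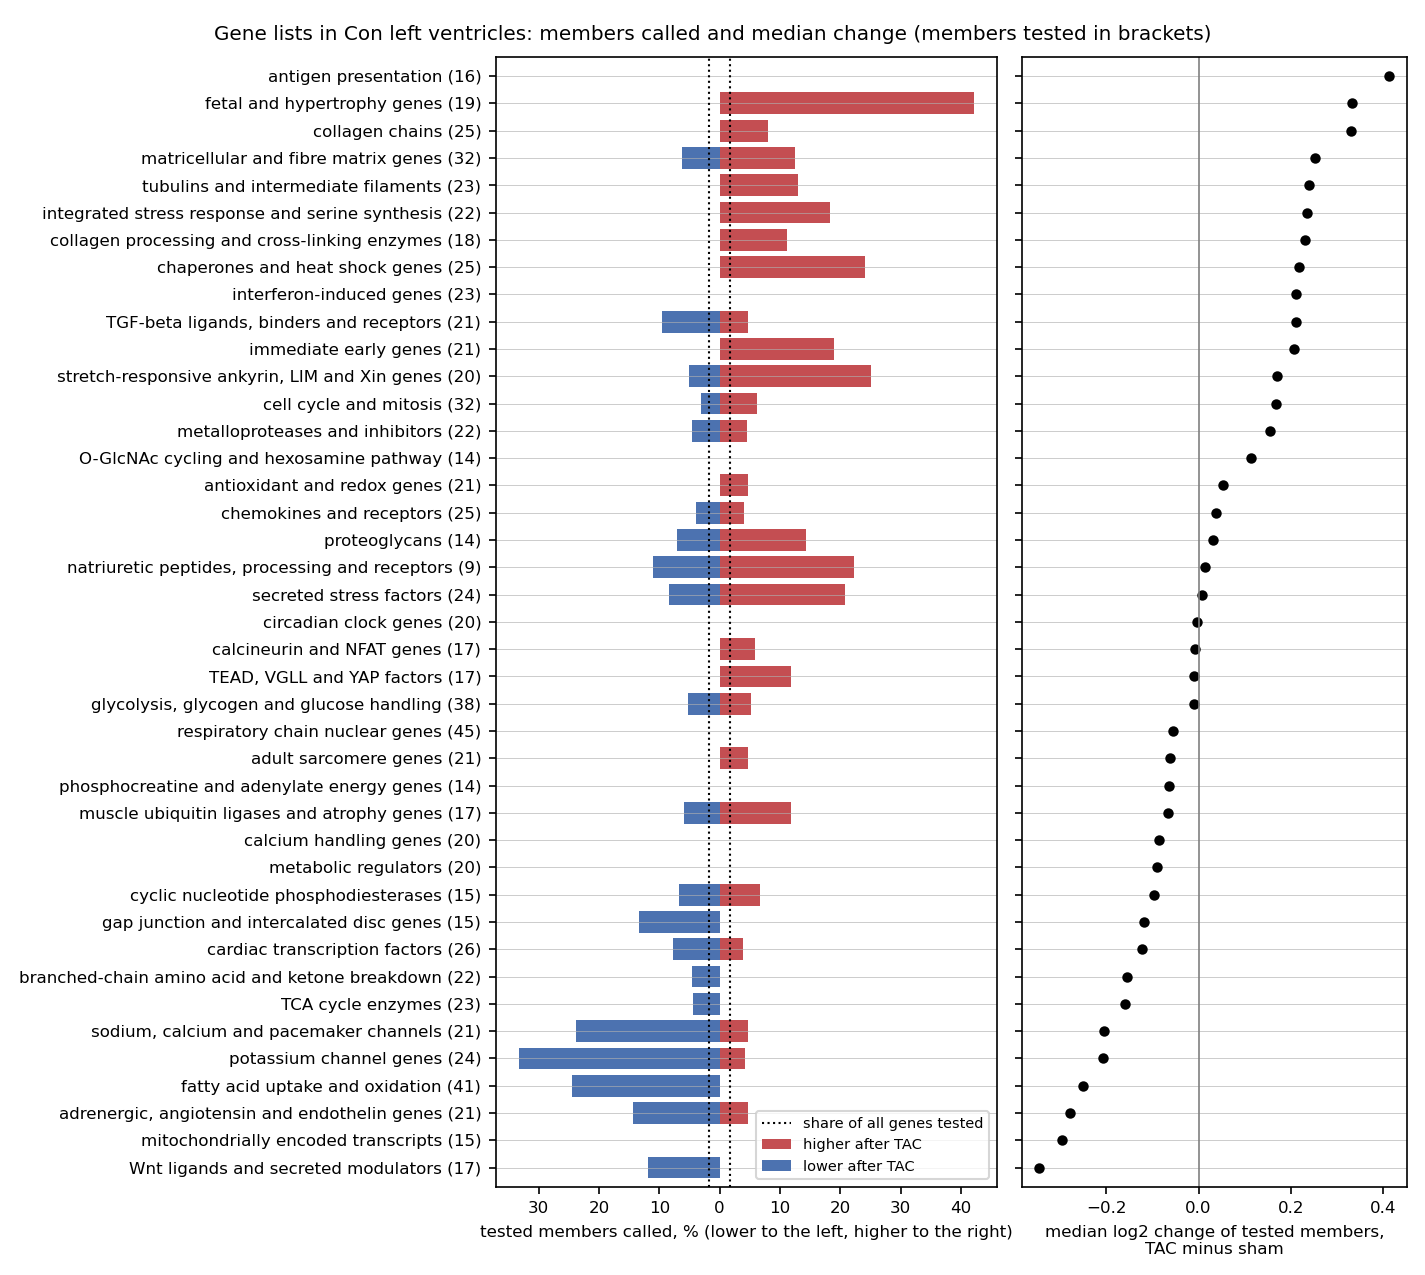
Left, the percentage of tested members called higher (right of 0) and lower (left of 0) in each of the 41 pathway lists, with the percentage over all genes dotted. Right, the median log2 change of the same lists. The fetal and hypertrophy list has the highest share called higher (42.1%), and the potassium channel list the highest share called lower (33.3%).

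Of 25 collagen chains, 23 had positive changes (median log2 0.33), but only Col8a1 and Col15a1 were called, both higher (8%). Col8a1, a short-chain collagen, ran from 827.0 to 1327 in sham (median 1125) and from 1175 to 3534 after TAC (median 2087), 1.87-fold higher (adjusted p 0.00275). The main fibrillar chains were not called, and their TAC values spread widely. Col1a1 ran from 4352 to 11600 in sham (median 6362) and from 4855 to 22510 after TAC (median 10810), with an adjusted p of 0.211. Col1a2 and Col3a1 had log2 changes of 0.53 and 0.30 (adjusted p 0.119 and 0.325). Col15a1, a basement membrane collagen, lost its call in 14 of 20 single omissions (adjusted p up to 0.0997).

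Among 32 matricellular and fibre matrix genes, 4 were called higher and 2 lower (12.5% and 6.25%, median log2 0.25), against 1.74% and 1.76% of all genes. Cilp, a matrix protein of fibroblasts, ran from 108.4 to 682.4 in sham (median 320.9) and from 432.9 to 2346 after TAC (median 1194), 3.34-fold higher (adjusted p 0.00611). Ccn2, connective tissue growth factor, had medians of 5153 and 9823 (1.94-fold, adjusted p 0.0156). Thbs4 and Postn, matricellular proteins of injured heart, were 1.82-fold and 1.79-fold higher (adjusted p 0.0145 and 0.0310). All 10 TAC libraries lay above the sham mean for these 4 genes. Without the 5 doubted libraries 0 of the 4 were called by limma (adjusted p 0.0786, 0.127, 0.0679 and 0.194 for Cilp, Ccn2, Thbs4 and Postn).

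Efemp1 and Thbs2 were the members that fell. Efemp1, a fibulin of elastic matrix, had medians of 460.8 and 267.8 (1.68-fold, adjusted p 0.00172), and Thbs2, a thrombospondin, 1360 and 899.4 (1.53-fold, adjusted p 0.0181). Both held without the 5 doubted libraries. Of 14 proteoglycans, Ogn (osteoglycin) fell 1.33-fold (sham 4481 to 6028, TAC 3188 to 4780, adjusted p 0.00228). Bgn and Lum, the small collagen-binding proteoglycans biglycan and lumican, were 1.41-fold and 1.30-fold higher (adjusted p 0.0459 and 0.0340). They lost their calls in 14 and 12 single omissions (up to 0.0956 and 0.0722).

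P4ha1, the collagen prolyl hydroxylase, was 1.49-fold higher (medians 2648 and 3878, adjusted p 0.000856), and the cross-linking enzyme Tgm2 1.23-fold higher (adjusted p 0.0212; 0.0958 without the 5 doubted libraries), the 2 calls of 18 collagen processing genes. Of 22 metalloprotease and inhibitor genes, Mmp23 was 1.45-fold higher (adjusted p 0.0319), with the call lost in 7 single omissions (up to 0.0651), and Adamts5, an aggrecan- and versican-cutting protease, 1.31-fold lower (adjusted p 0.0116).

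In the TGF-β list, where ligands are stored on binding proteins until released, Tgfb2 rose and Ltbp1 and Tgfbr3 fell (4.76% and 9.52% of 21 tested, median log2 0.21). Tgfb2, a ligand, ran from 332.0 to 701.5 in sham (median 486.2) and from 540.4 to 1241 after TAC (median 830.8), 1.73-fold higher (adjusted p 0.00265). Ltbp1, a latent TGF-β binding protein, ran from 2000 to 2558 (median 2103) and from 1208 to 1987 (median 1573). Every TAC library was below every sham library, and Ltbp1 was 1.41-fold lower (log2 -0.50 ± 0.08 SE, adjusted p 0.000607). Tgfbr3, the coreceptor betaglycan, was 1.27-fold lower (adjusted p 0.0362) and lost its call in 11 single omissions (up to 0.0794).

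The summed level of 14 fibroblast markers was 113000 to 183400 in sham and 112700 to 185700 after TAC, and none of them was at 0 in at least 11 of the 20 libraries. Of these 14, 3 were called higher and 2 lower (21.4% and 14.3%). Meox1, a homeobox factor, was 1.95-fold higher (adjusted p 0.000715), and Scara5 and Dpt were lower (log2 -0.45 and -0.44, adjusted p 0.0132 and 0.0162). The remaining calls, Pi16 and Lum, were higher (log2 0.45 and 0.38, adjusted p 0.0263 and 0.0340). Over the 14 markers 8 changes were positive and 6 negative, so the list had no common direction.

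Of 17 Wnt ligands and secreted Wnt modulators, 2 were lower (11.8%) and 0 higher (median log2 -0.35). Wnt5a, a ligand of the β-catenin-independent branch, ran from 323.0 to 584.5 in sham (median 416.1) and from 133.2 to 341.8 after TAC (median 258.3), 1.75-fold lower (log2 -0.81 ± 0.14 SE, adjusted p 0.00134). Sfrp5, a secreted Wnt inhibitor, fell further: it ran from 44.2 to 225.3 (median 64.0) and from 1.85 to 67.6 (median 15.1), 6.57-fold lower (adjusted p 0.00173). Both calls held without the 5 doubted libraries.

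Of 41 fatty acid uptake and oxidation genes tested, 10 were called lower and 0 higher (24.4% against 1.76% of all genes), 38 had negative changes, and the median log2 was -0.25. Uptake was represented by Slc27a1, a fatty acid transport protein, which ran from 3872 to 5807 in sham (median 5290) and from 2753 to 4175 after TAC (median 3831), 1.44-fold lower (adjusted p 0.00129). Acaa2, the mitochondrial thiolase that ends each oxidation cycle, ran from 21410 to 39470 (median 29580) and from 14470 to 29630 (median 19130), 1.50-fold lower (log2 -0.58 ± 0.12 SE, adjusted p 0.00697). All 10 TAC libraries were below the sham mean for both genes. Hadha, a subunit of the trifunctional protein, was 1.29-fold lower (adjusted p 0.0411), with the call lost in 12 single omissions (up to 0.0871).

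Acot1 and Acot2, thioesterases that release fatty acid from coenzyme A, were 2.92-fold and 1.46-fold lower (Acot1 medians 600.6 and 161.3; adjusted p 0.00708 and 0.0180). Ehhadh, a peroxisomal oxidation enzyme, had medians of 427.4 and 310.6 (1.47-fold, adjusted p 0.0153). Crat, Decr1 and Ech1 were also called lower, and these calls were lost in 3, 10 and 13 single omissions (adjusted p up to 0.0539, 0.0670 and 0.0706). The carnitine palmitoyltransferases Cpt1b and Cpt2, which admit fatty acids to mitochondria, had log2 changes of -0.20 and -0.26 (adjusted p 0.131 and 0.0579). The list depended on the doubted libraries: 4 members were called without the 3 rich in zeros, 6 without the 2 low in Xist and 1, Slc27a1, without all 5.

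**Figure D4:**
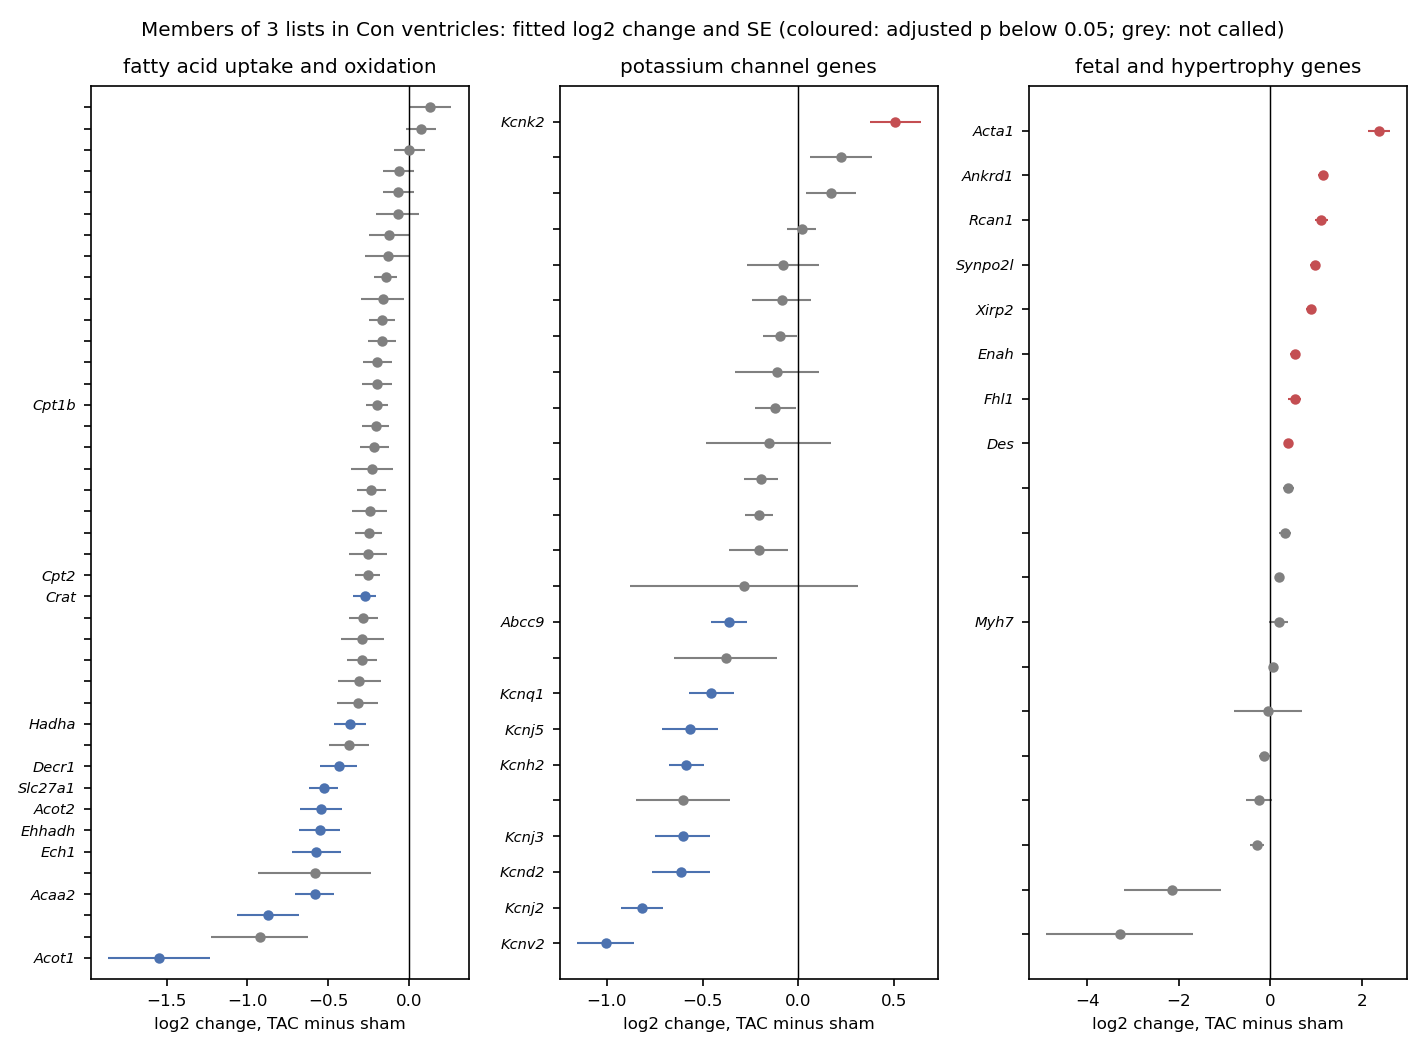
Log2 change after TAC (x axis, with its SE) of each tested member of the fatty acid list (41 genes), the potassium channel list (24) and the fetal and hypertrophy list (19), coloured where called; genes named in the text are labelled. Nearly all fatty acid genes lie left of 0 with small changes, while the 8 called fetal and hypertrophy genes lie right of 0.

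The 23 enzymes of the tricarboxylic acid cycle gave 1 call (4.35%, close to the 3.49% of all genes). It was citrate synthase (Cs), the entry enzyme of that cycle. It ran from 45740 to 61230 in sham (median 52940) and from 31810 to 53650 after TAC (median 41880), 1.26-fold lower (adjusted p 0.0156; 0.0985 without the 5 doubted libraries). All 23 changes were negative (median log2 -0.16). Of 45 nuclear respiratory chain genes, 20 metabolic regulators and 15 mitochondrially encoded transcripts, 0 were called by limma, with median log2 changes of -0.05, -0.09 and -0.30. With 3.49% of all genes called, lists this short can hold 0 calls. Ppargc1a, the coactivator of mitochondrial genes, had a log2 change of -0.28 (adjusted p 0.347). All 15 mitochondrial transcripts had negative changes, and their share of the library total was 18.2% to 22.1% in sham and 8.28% to 19.3% after TAC, lowest in Con TAC M replicate 1.

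Ppm1k, the phosphatase that activates branched-chain amino acid breakdown, was 1.50-fold lower (medians 2871 and 1826, adjusted p 0.00746), the 1 call of 22. That is 4.55% of its list, close to the 3.49% of all genes. Glucose handling gave calls in both directions, 2 higher and 2 lower of 38 (5.26% each, against 1.74% and 1.76% of all genes). Pfkp, the platelet form of phosphofructokinase, rose from 1944 to 3071 (median 2403) to 3081 to 4763 (median 3696) with no overlap, 1.56-fold (adjusted p 0.000277), and Ppp1r3c, which targets a phosphatase to glycogen, 1.43-fold (adjusted p 0.000860). Phkg1 and Pfkfb1, subunits or enzymes of glycogen breakdown and fructose bisphosphate control, fell 2.19-fold and 2.26-fold (both adjusted p 0.0144). Pfkm, the muscle phosphofructokinase, had a log2 change of -0.18 (adjusted p 0.158).

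Several genes outside these lists were among those with the widest changes. Aqp8, a water channel, was 3.33-fold higher (medians 225.3 and 630.6, adjusted p 1.89e-05). Aqp4, another water channel, moved the other way: it ran from 64.5 to 267.4 in sham (median 134.1) and from 11.7 to 66.3 after TAC (median 26.4), 4.66-fold lower (log2 -2.22 ± 0.34 SE, adjusted p 0.000455). Kcna2, a voltage-gated potassium channel outside the channel list, was 2.34-fold lower (adjusted p 0.0142). Inmt, a methyltransferase, was 2.08-fold lower (adjusted p 0.00202).

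Of 23 interferon-induced and 16 antigen presentation genes, 0 were called by limma, although 21 and 16 of them had positive changes (median log2 0.21 and 0.41). Lists of this size can hold 0 calls where 3.49% of all genes are called. B2m, the light chain of class I molecules, ran from 4385 to 21810 in sham (median 6710) and from 5001 to 32510 after TAC (median 7822; adjusted p 0.368). Of 25 chemokine and receptor genes, Ccl27a was 1.51-fold higher and Ccl11, the eosinophil attractant eotaxin, 1.98-fold lower (both adjusted p 0.0181). Each was 4% of the list, against 1.74% and 1.76% of all genes. The 13 macrophage markers had 0 calls and summed levels of 5769 to 11620 in sham and 7118 to 12380 after TAC.

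Oga, which removes O-linked GlcNAc and whose dominant negative form the ONOFF mice carry, and Ogt, which adds it, did not pass the test in Con. Oga ran from 2644 to 3507 in sham (median 3182) and from 2195 to 3386 after TAC (median 3073; adjusted p 0.724), and Ogt had medians of 2473 and 2183 (adjusted p 0.616). The 14 genes of this pathway gave 0 calls by limma (median log2 0.11), and the 20 clock genes and 14 phosphocreatine and adenylate genes also gave 0. Such short lists can hold 0 calls where 3.49% of all genes are called.

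The difference of the TAC effect between libraries labelled F and M was tested for all genes. It was called for 0 of 15780 genes (0%) by limma. At an unadjusted p below 0.05 there were 284, fewer than that threshold would pass by chance alone. All 551 called genes had the same sign in both sexes. They were called on the mean of the F and M effects in the same libraries, so that count tests nothing. With 5 libraries in each cell, and 2 of the Con TAC libraries labelled female low in Xist, the 0 calls do not show that the sexes respond alike.

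Con and ONOFF hearts were compared in a fit of all 40 libraries with 8 group means, in which 948 genes were called in Con and 3480 of 16395 (21.2%) in ONOFF. The change differed between genotypes for 73 genes (0.445%), and at an unadjusted p below 0.05 for 1874. Of the 73, the estimates of 59 had the same sign in both and were larger in ONOFF. Opposite signs were seen for 14, and 0 had the same sign but a smaller estimate in ONOFF. The count takes the sign of any estimate, so it does not show a change in Con. Among the 59 were Grk5 and Tmem158, with log2 0.06 and 0.01 in Con (adjusted p 0.753 and 0.981). Of the 551 genes called from the Con libraries, 20 were among the 73, and 370 had the larger change in ONOFF.

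Synpo2l and Xirp2, which rose in Con, rose further in ONOFF (log2 1.75 and 1.58 in ONOFF against 0.99 and 0.88 in Con; adjusted p of the difference 0.0474 and 0.0327). Fhl1, Postn, Thbs4 and Bgn also rose further in ONOFF (log2 1.63, 2.14, 2.36 and 1.35 against 0.53, 0.84, 0.86 and 0.50; adjusted p 0.0307, 0.0474, 0.0479 and 0.0240). Acaa2 fell further (log2 -1.23 against -0.58, adjusted p 0.0479). For Nppa the change was log2 3.71 in ONOFF and 2.29 in Con, and this difference was not called (adjusted p 0.153); for Acta1 it was 2.88 and 2.38 (adjusted p 0.602). For Kcnj2 and Wnt5a the values were log2 -0.83 and -0.70 in ONOFF and -0.82 and -0.81 in Con (adjusted p of the difference 0.985 and 0.907). The count of 73 moved widely: leaving out a single library gave 9 to 252 genes, with the lowest count without ONOFF TAC F replicate 5 and the highest without ONOFF TAC F replicate 1. With a replicate block 8 of the 73 were still called. The called differences named here, several close to the threshold, can therefore depend on single libraries and on the fit.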

How the data were processed

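Total RNA of mouse left ventricle was extracted with a fibrous tissue kit and made into stranded libraries, per the labels' protocols. The authors deposited normalized counts of 22676 genes in 40 libraries. The values are not whole numbers, so they are a normalized signal and not raw counts, and the depth behind them is unknown. The submitters' processing notes name FastQC 0.11.7, MultiQC 0.8, STAR 2.7.3a, Salmon, R 4.3.1, DESeq2 and the GRCm39 build, without their settings. Of the genes, 41 had no symbol. A few genes are not reported here.

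Libraries were grouped by genotype, surgery and F or M label. The deposited signal was taken to log2(value + 1), genes with at least 10 in at least 5 of the 20 Con libraries were kept, and limma 3.58.1 (R 4.3.3, data.table version 1.17.8, statmod 1.5.0; trend and robust options) fitted surgery and the F or M label, with Benjamini-Hochberg adjustment over all genes tested. Fold changes are on the log2(value + 1) scale, where the added 1 shrinks ratios of low values but a value at or near 0 can enlarge a change. Tbx15, at 0 in Con Sham M replicate 4, had log2 changes of 1.86 in F and 3.65 in M. The F minus M difference was fitted with 4 group means, and the ONOFF minus Con difference with 8 group means over 40 libraries. The fit was tested on simulated normal values with each gene's own spread. These held no differences shared by a whole library, so that test does not cover the doubted libraries. A non-overlap count compares the lowest and highest of 10 values with those of the other 10.

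The libraries, the 41 pathway lists and the 21 marker lists were chosen with earlier results of these data known, so a list's count is no independent evidence of its direction. Named genes were the 15 largest changes in each direction in called genes whose mean reached 100 in the higher condition, up to 5 called and 2 uncalled genes per list with the smallest p, the 5 clearest genotype differences, and a list of genes of known interest. Crip2, Kcnk2, Kcnj5, Kcnq1, Abcc9, Fgf13, Fgf16, Fgf2, Crat, Decr1, Ech1, Acot2, Hsp90ab1, Meox1, Scara5, Dpt and any other gene outside that rule were chosen after their values were seen. Alternatives were another pseudocount, filters, scalings, library weights, blocks, no F or M term and the omission of single libraries; the omission of the 3 libraries rich in zeros and the 2 low in Xist was chosen after seeing the data. The labels do not say that replicate numbers pair libraries: the correlation of same-numbered deviations ran from -0.11 to 0.19 over 10 pairs, and 1 exceeded 0.1. Promoters came from RefSeq in build GRCm38.p6, another build than that of the deposited values, and were matched by symbol for 4 of 4 genes shown. Figures were drawn with Python 3.11.15 (numpy 2.4.6, pandas 2.3.3, matplotlib 3.10.9).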

Additional observations from a re-analysis of the deposited data

Results flagged for a closer look

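In 31 of 388 groups of 10 libraries the highest or lowest library of a named gene stood apart, its gap to the next library, as a share of the group's whole range on the log2(value + 1) scale, exceeding Dixon's critical value; chance flags about 1 in 20 groups. That share is given after each gene. Con Sham F replicate 3, one of the libraries rich in zeros, was high for B2m (0.545; 21800 normalized counts against 4380 to 9090 in the others) and H2-D1 (0.515), both class I antigen presentation genes. It was low for Aspn (0.590), Bhlhe40 (0.632), Nes (0.50) and Prkg1 (0.551). Con TAC F replicate 2, one of the libraries low in Xist, was low for Acadm (0.526), Atp2a2 (0.553), Ehhadh (0.537), Kcnd2 (0.475) and Ryr2 (0.492), which serve fatty acid oxidation, calcium handling and repolarization.

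Con TAC F replicate 4 was high for Asb11 (0.502) and Bckdhb (0.593) and low for Kcna4 (0.613) and Pde10a (0.472). Con Sham F replicate 2 was low for Actn2 (0.471), Cpt1b (0.537) and Fhl1 (0.520). Con TAC M replicate 1 was low for the mitochondrial transcripts mt-Co1 (0.618) and mt-Nd5 (0.573) and high for Ckmt1 (0.471). Con Sham M replicate 4, also rich in zeros, was low for Pde8a (0.529), Tbx15 (0.837, listed at 0) and Usp18 (0.510). Con TAC M replicate 2 was low for Sbk2 (0.466) and Wif1 (0.525).

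Single genes stood apart in 5 further libraries. Angptl4 was low in Con TAC F replicate 1 (0.639), Kcna2 low in Con TAC F replicate 5 (0.544) and Cenpf high in Con TAC M replicate 3 (0.703; 1040 normalized counts against 89.7 to 186 in the others). In sham, Klhl38 was high in F replicate 4 (0.608) and Uap1l1 high in F replicate 5 (0.474).

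The TAC effect differed between ONOFF and Con at an adjusted p below 0.05 (limma) for 12 named genes. As ONOFF minus Con on the log2 scale, the difference was 0.81 for Grk5, a kinase that desensitizes adrenergic receptors, 1.31 for Slco2a1, a prostaglandin transporter, and 0.72 for Bcr; none of these 3 was called in Con. It was 1.50 for Thbs4, 1.30 for Postn, 1.10 for Fhl1, 0.85 for Bgn, 0.77 for Synpo2l and 0.69 for Xirp2, all called higher in Con. It was -0.85 for Ttll1, -0.64 for Acaa2 and -0.58 for Hhatl, all negative in Con as well. Ttll1 was not called there (adjusted p 0.2095 in the fit of all 40 libraries).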

How the results depend on the processing

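The count of 551 genes called in Con lay between 417 and 617 with median-ratio rescaling, a pseudocount of 10, a floor of 50 on the mean, no filter, quantile normalization, no F or M term, a replicate block and the library-name number as a random block. With the replicate block it was 417. It was 1468 with library weights, 948 in the fit of all 40 libraries and 359 without the 2 libraries low in Xist, a setting chosen after seeing the data. Single omissions gave 371 to 649. Quantile normalization called 246 higher and 319 lower. The count of genes whose change differed between F and M was 0 in every setting and in every single omission (0 to 0). The count of 73 genes that differed between Con and ONOFF was 30 with no filter, 120 with quantile normalization, 449 with library weights, 8 with a replicate block, 32 with the library-name number as a random block, 131 without the libraries rich in zeros, 151 without those low in Xist and 441 without all 5. Single omissions gave 9 to 252. The cause of these moves was not tested. Of 106 named genes called in Con, 81 were called in all 20 single omissions and 52 in all 33 settings, and 0 changed sign. The omission of the libraries rich in zeros, of those low in Xist and of all 5 lost 27, 31 and 42 of them, the replicate block 11. Depth before normalization is unknown, so low genes such as Sfrp5 and Tbx15 carry a counting error that cannot be given.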
